A study of Homo sapiens with 9 samples.

Results

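The 10 genes described here encode subunits of the transcription factor NF-kB, its inhibitors and targets that it switches on. They were chosen by name, with earlier results of these data known, as NFKB1, NFKB2, RELA, RELB, NFKBIA, NFKBIE, TNFAIP3, TNFAIP2, BIRC3 and ICAM1. All 10 were found among the 31558 genes of the count table and among the 31268 genes of the FPKM table. FPKM scales fragment counts by exon length and by the mapped fragments of the library, so it allows levels to be compared between genes of different length. The study extracted total RNA from HCT116 cells, a human colorectal cancer cell line. The RNA was sequenced in 9 libraries of 3 groups with 3 biological replicates each. CRLM1-OE cells overexpressed the long noncoding RNA CRLM1, and Ctrl cells carried the free plasmid without an insert. Anti cells were the antisense control, which the study names antisense-OE, so they overexpressed the antisense of CRLM1. CRLM1 was expressed from a pTSB vector, and the study's methods describe both plasmid transfection and puromycin-selected lentiviral lines. The study describes the sequenced cells as transfected. Whether they were also selected as stable lines, and whether any line was 1 clone or a pool, is not given in the sources used here. Whether replicates were transfected separately is not given there either. The p-values therefore cover only spread between these libraries, which the fit took from a trend across genes, not gene by gene. No stimulus of the pathway is named for any group, so the values are levels in cells kept in culture medium.

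Total counts per library lay between 33302292 and 44514692, and the lowest count of any of the 10 genes in any library was 457. CRLM1, listed as RP4-710M16.2, had between 32751 and 38704 counts in the CRLM1-OE libraries and 0 in the 3 Ctrl libraries. The Anti libraries had between 1540 and 1951 counts at this gene. Whether counting used strand is not given in the sources used here, so sense and antisense reads at CRLM1 cannot be told apart. Epithelial markers were present, with 6 of 8 reaching 1 FPKM. They summed to 4910 to 5050 FPKM in CRLM1-OE, to 5580 to 5620 in Ctrl and to 4620 to 4680 in Anti, while the intestinal markers CDH17 and VIL1 stayed at or below 0.07 FPKM in every library. Of the markers of other cell types, CD68 of the 5 leukocyte genes in the table, COL1A1 of the 4 fibroblast genes and none of the 5 endothelial genes (sums at or below 0.14 FPKM) reached 1 FPKM, and the pan-leukocyte gene PTPRC was at or below 0.01 FPKM. Summed fibroblast markers were higher in CRLM1-OE (2.07 to 2.50 FPKM) than in Ctrl (1.19 to 1.28 FPKM) and Anti (1.27 to 1.42 FPKM). This sum was almost wholly COL1A1, as the other fibroblast genes stayed at or below 0.04 FPKM. Summed leukocyte markers lay between 2.05 and 2.21 FPKM in the CRLM1-OE libraries, between 1.81 and 1.92 FPKM in Ctrl and between 1.46 and 1.73 FPKM in Anti. Most of this sum was CD68, at 1.80 to 2.02 FPKM in CRLM1-OE. The part of these markers in the results below was not tested. In bulk RNA, fewer cells that express a gene and less RNA per cell cannot be told apart.

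NF-kB is a family of dimers that are held in the cytoplasm by IkB proteins until a signal, such as the cytokine TNF, activates the IkB kinase and leads to degradation of the inhibitor. NFKB1 and NFKB2 encode precursors that are processed to p50 and p52, while RELA and RELB encode subunits with a transactivation domain. Many genes that restrain the pathway, among them NFKBIA and TNFAIP3, are themselves transcribed under NF-kB, which gives a negative feedback. In the intestinal epithelium the pathway is best known for linking inflammation with cell survival.

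A match to the kappaB consensus, the site that NF-kB dimers bind, was searched on both strands of promoter windows of 300 bases, which run from 250 bases before to 50 bases after a start annotated by RefSeq on GRCh38.p14. The table held 12 windows for 8 of the 10 genes, and RELB and NFKBIE are not in it. At least 1 match was present for 5 of these 8 genes (62.5%) and for 13.3% of all 27305 genes, or for 11.3% of all 35116 windows. The genes were chosen as parts and targets of the pathway, so the higher share among them is no result about them. The letters searched were GGGRNNYYCC, where R is A or G, Y is C or T and N is any base. The windows of RELA, TNFAIP2 and ICAM1 held no match, which says only that these letters are not in these windows. The 250 bases before the start are shown for NFKBIA and BIRC3, the members that were lowest against Ctrl, and for NFKB1 and NFKB2, which moved in opposite directions. Letters in capitals mark the bases of a match, and overlapping matches run together. The windows lie at chr14:35404750-35404999 on the reverse strand for NFKBIA, chr11:102317234-102317483 on the forward strand for BIRC3, chr4:102501109-102501358 on the forward strand for NFKB1 and chr10:102395455-102395704 on the forward strand for NFKB2. For NFKB1 and NFKB2 this is 1 of several annotated starts. The other NFKB1 window held no match. Of the other NFKB2 windows, that from chr10:102393860 held none and that from chr10:102394328 held matches.
NFKBIA: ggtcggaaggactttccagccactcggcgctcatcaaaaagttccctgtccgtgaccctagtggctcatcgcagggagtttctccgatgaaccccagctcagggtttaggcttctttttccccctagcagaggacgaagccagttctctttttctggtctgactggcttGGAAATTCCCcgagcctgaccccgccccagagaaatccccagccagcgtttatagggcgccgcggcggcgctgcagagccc
BIRC3: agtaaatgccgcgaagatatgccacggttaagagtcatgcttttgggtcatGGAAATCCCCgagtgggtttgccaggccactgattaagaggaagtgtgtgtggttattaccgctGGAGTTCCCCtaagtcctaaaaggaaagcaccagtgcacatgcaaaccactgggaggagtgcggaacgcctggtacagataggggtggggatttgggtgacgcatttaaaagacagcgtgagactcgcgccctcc
NFKB1: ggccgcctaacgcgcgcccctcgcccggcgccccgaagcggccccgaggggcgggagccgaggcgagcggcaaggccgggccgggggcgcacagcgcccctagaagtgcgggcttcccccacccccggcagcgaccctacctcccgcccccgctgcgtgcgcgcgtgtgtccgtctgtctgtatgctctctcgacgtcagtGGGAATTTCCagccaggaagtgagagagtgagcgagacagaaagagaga
NFKB2: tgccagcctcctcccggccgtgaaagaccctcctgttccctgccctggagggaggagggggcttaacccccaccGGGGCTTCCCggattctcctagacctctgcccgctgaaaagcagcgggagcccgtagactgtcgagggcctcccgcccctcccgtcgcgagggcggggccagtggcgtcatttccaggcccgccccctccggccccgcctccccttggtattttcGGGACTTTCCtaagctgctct

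In NFKBIA the match began 81 bases before the start, and in NFKB1 it began 49 bases before it. BIRC3 had matches beginning 199 and 135 bases before the start. In the NFKB2 window shown, matches began 176 and 21 bases before the start. TNFAIP3, not shown, had matches 67 and 55 bases before its start.

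In Ctrl cells, NFKB2 and NFKBIA stood at the top of the 10 genes at 87.8 ± 3.41 and 84.3 ± 0.978 FPKM (mean ± SD, n = 3 here and below). RELA followed at 40.4 ± 0.737, RELB at 36.9 ± 0.286, TNFAIP2 at 18.8 ± 0.463 and NFKBIE at 12.7 ± 0.501 FPKM. BIRC3 (11.1 ± 0.266 FPKM) and TNFAIP3 (11.0 ± 0.197 FPKM) overlapped over their samples, and they were the only neighbours in this order in Ctrl that did. NFKB1 (7.25 ± 0.357 FPKM) and ICAM1 (5.89 ± 0.29 FPKM) were lowest. In CRLM1-OE cells NFKB2 was again first, and BIRC3 stood below TNFAIP3. In Anti cells NFKBIA was first and RELB stood above RELA. The coefficient of variation of FPKM within a group was between 0.774% and 4.93% over the 30 combinations of gene and group.

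**Figure D1:**
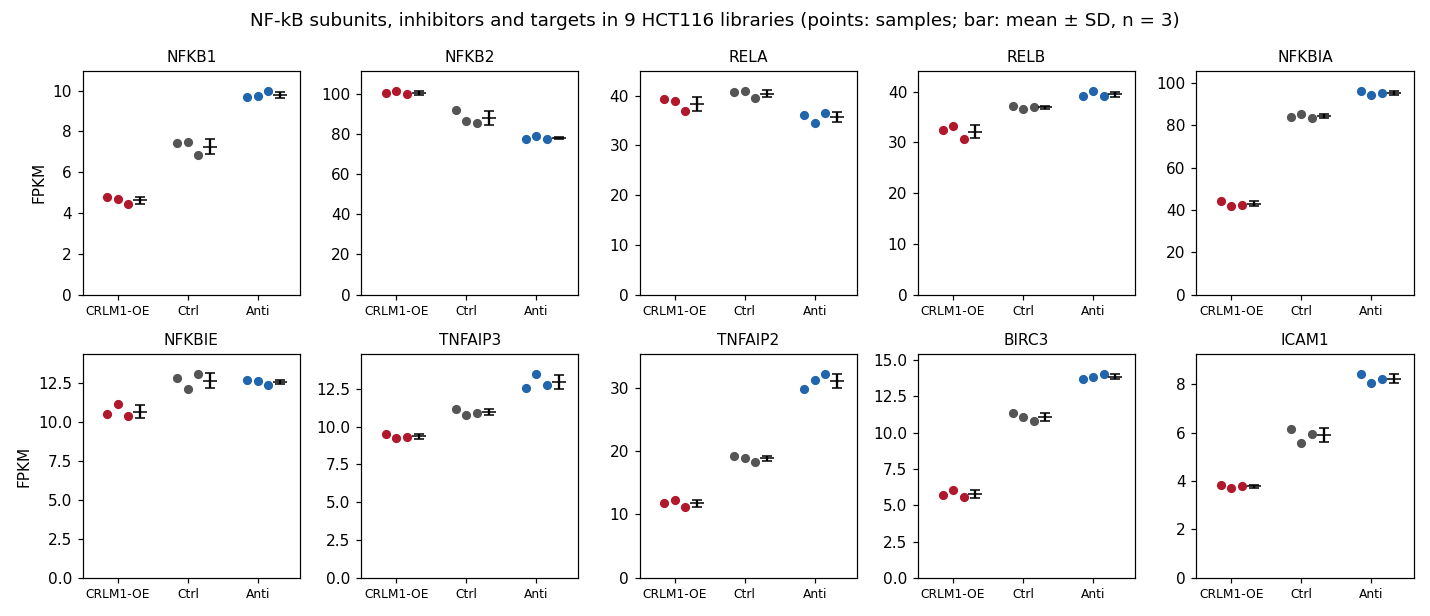
FPKM of each of the 10 genes in the 9 libraries, on linear axes that start at 0 and differ between panels. Points are libraries of CRLM1-OE, Ctrl and Anti, and bars give the mean ± SD (n = 3); mean NFKBIA was 84.3 FPKM in Ctrl but 42.9 in CRLM1-OE, while RELA stayed between 34.60 and 40.94 FPKM in all 9 libraries.

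The first comparison asks what overexpression of CRLM1 changed against the plasmid control. Of the 10 genes, 9 were lower and 1, NFKB2, was higher in CRLM1-OE than in Ctrl at an adjusted p of at most 0.05 (edgeR quasi-likelihood test, adjusted over all genes tested). The background was wide: 16.8% of all 29846 tested genes were lower and 15.0% were higher, and among the 11702 genes averaging 100 counts or more, where all 10 genes lie, 39.1% were lower and 28.8% were higher. The median log2 fold change was -0.56 over the 10 genes, 0.017 over all genes tested and -0.048 over the genes with at least 100 counts. The groups did not overlap in normalised counts for any of the 10 genes, as for 37.5% of all tested genes. A change of at least 2-fold was called for 2 of the 10, NFKBIA and BIRC3, against 3.41% of all genes. Under total-count scaling 8 of the 10 were lower, as RELA did not pass, and NFKBIA and BIRC3 stayed lower without reaching 2-fold. That scaling moved the median of the genes with at least 100 counts by 0.14 on the log2 scale.

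The second comparison sets CRLM1-OE against the antisense control. Here 8 of the 10 genes were lower and 1 was higher, while 18.5% of all 30183 tested genes were lower and 17.1% higher, or 40.4% and 33.8% of the genes with at least 100 counts. The medians were -0.82 over the 10 genes, -0.023 over all genes tested and -0.037 over the genes with at least 100 counts. At least 2-fold lower were 5 of the 10, namely NFKB1, NFKBIA, TNFAIP2, BIRC3 and ICAM1, against 5.65% of all genes called in either direction. The groups did not overlap in normalised counts for 9 genes, against 41.0% of all tested genes. The exception was RELA. Both comparisons use the same CRLM1-OE libraries, so they are not independent of each other.

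The third comparison, Anti against Ctrl, asks how the controls differ. It found 6 of the 10 genes higher and 2 lower in Anti, against 11.5% and 12.2% of all 29714 tested genes, or 25.0% and 28.8% of those with at least 100 counts. The medians were 0.12 over the 10 genes, 0.0047 over all genes tested and -0.0077 over the genes with at least 100 counts. None of the 10 reached 2-fold by edgeR or by DESeq2, against 1.06% of all tested genes, while 9 had an unadjusted p under 0.05. The groups did not overlap for any of the 10 in normalised counts, against 31.0% of all tested genes. RELB and NFKBIE are among them, although neither passed the edgeR test (adjusted p = 0.99 and 0.088). The normalised counts used TMM factors of all 9 libraries together, while each test used factors of its own 6 libraries. In FPKM the groups overlapped for NFKBIE. An exact permutation test of 3 libraries against 3 cannot go below a two-sided p of 0.1, so the tests used here borrow the spread from all genes.

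**Figure D2:**
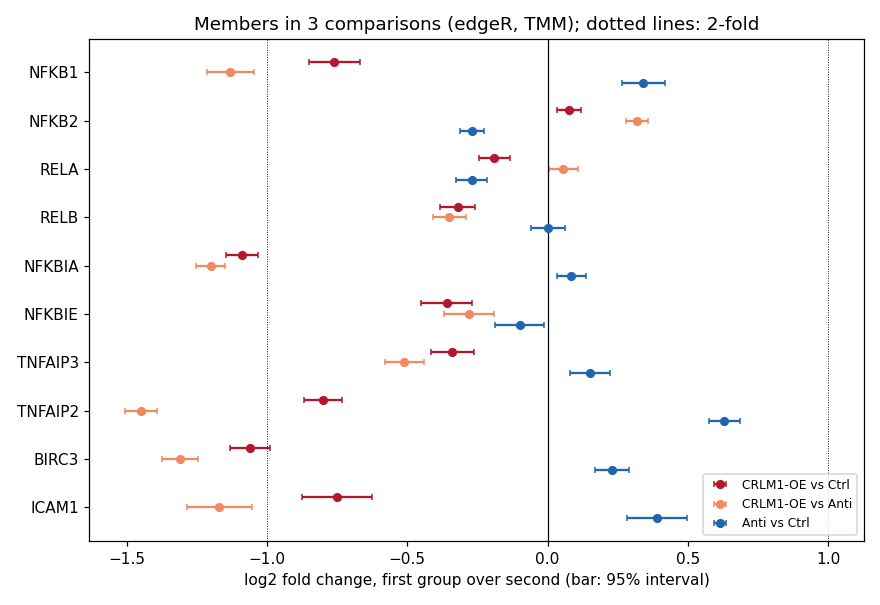
Log2 fold changes of the 10 genes in the 3 comparisons (edgeR with TMM factors), with bars of the 95% interval and dotted lines at a 2-fold change. Against both controls NFKBIA and BIRC3 lie beyond the line at 2-fold lower, NFKB2 lies above 0, and the values of Anti against Ctrl lie between -0.27 and 0.63.

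Among the subunits, NFKB1 and NFKB2 moved in opposite directions. NFKB1, which encodes the p105 precursor of p50, lies on the forward strand of GRCh38 at chr4:102501330-102617302. It had 4.78, 4.67 and 4.44 FPKM in the CRLM1-OE libraries, 7.42, 7.49 and 6.84 FPKM in Ctrl and 9.70, 9.74 and 9.98 FPKM in Anti. The 3 groups stood apart, with CRLM1-OE lowest and Anti highest. Against Ctrl, NFKB1 in CRLM1-OE fell by 0.76 on the log2 scale (SE 0.046, adjusted p = 1e-60), to 59.0% of the Ctrl level. Against Anti it stood at 45.8% (log2 fold change -1.13, SE 0.042, adjusted p = 3.2e-156), and Anti was above Ctrl by 0.34 (SE 0.039, adjusted p = 4.7e-17).

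NFKB2, which encodes the p100 precursor of p52 and lies at chr10:102394110-102402524 on the forward strand, went the other way. Its FPKM were 100.10, 101.21 and 99.55 in CRLM1-OE, 91.77, 86.20 and 85.57 in Ctrl and 77.57, 78.73 and 77.42 in Anti. CRLM1-OE was highest and Anti lowest, with no overlap. The change against Ctrl was small, at 0.076 (SE 0.022, adjusted p = 0.0025), and it ranged from 0.07 to 0.22 over the alternative settings with an adjusted p of at most 0.023. Against Anti, NFKB2 was 0.32 higher (SE 0.02, adjusted p = 1.5e-56), and Anti was below Ctrl by a log2 fold change of -0.27 (SE 0.022, adjusted p = 3.1e-30).

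RELA, which encodes the p65 subunit and lies at chr11:65653599-65663090 on the reverse strand, had a narrow range over the 9 libraries. Its FPKM were 39.37, 38.88 and 36.85 in CRLM1-OE, 40.75, 40.94 and 39.58 in Ctrl and 36.19, 34.60 and 36.46 in Anti. Anti lay below the other groups in each library. Against Ctrl, RELA in CRLM1-OE had a log2 fold change of -0.19 (SE 0.028, adjusted p = 8.4e-11), but of -0.049 with total-count scaling (adjusted p = 0.2) and of -0.076 with limma on log2(FPKM + 0.1) (adjusted p = 0.12). Against Anti the log2 fold change was 0.056 (95% interval 0.0052 to 0.11, adjusted p = 0.081), and it passed the threshold under 4 other scalings or filters. Without CRLM1-OE replicate 3 it was 0.092 (adjusted p = 0.0037). Anti was below Ctrl by a log2 fold change of -0.27 (SE 0.028, adjusted p = 1.3e-20).

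RELB, the partner of p52 in the alternative pathway, lies at chr19:45001461-45038192 on the forward strand. Its FPKM were 32.33, 33.17 and 30.64 in CRLM1-OE, 37.17, 36.61 and 36.99 in Ctrl and 39.08, 40.08 and 39.09 in Anti. CRLM1-OE lay below both controls in every library. RELB fell by 0.32 against Ctrl (SE 0.032, adjusted p = 1e-21) and by 0.35 against Anti (SE 0.03, adjusted p = 1.7e-29). Between the controls the log2 fold change was 0.0029 (95% interval -0.058 to 0.064, adjusted p = 0.99), yet it was 0.11 with total-count scaling (adjusted p = 0.0025) and 0.094 with limma on log2(FPKM + 0.1) (adjusted p = 0.013).

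Of the inhibitors, NFKBIA changed far more than NFKBIE. NFKBIA encodes IkB-alpha, the main inhibitor of the dimers that contain p65, and lies at chr14:35401079-35404749 on the reverse strand. Its FPKM were 44.18, 41.83 and 42.56 in CRLM1-OE, 84.14, 85.38 and 83.45 in Ctrl and 96.21, 94.18 and 95.42 in Anti. The 3 groups were widely apart, with CRLM1-OE lowest. NFKBIA stood at 47.0% of Ctrl (log2 fold change -1.09, SE 0.029) and at 43.6% of Anti (-1.2, SE 0.026), both at an adjusted p of 1e-300, the smallest value written. Over the alternative settings the value against Ctrl ranged from -1.11 to -0.95, with an adjusted p of at most 7.1e-06. Between the controls NFKBIA was higher in Anti by only 0.085 (SE 0.026, adjusted p = 0.0059), and without Anti replicate 1 this was 0.076 with an adjusted p of 0.06.

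NFKBIE, which encodes IkB-epsilon, lies at chr6:44258166-44265788 on the reverse strand. It had 10.50, 11.19 and 10.38 FPKM in the CRLM1-OE libraries, 12.85, 12.12 and 13.08 FPKM in Ctrl and 12.70, 12.63 and 12.41 FPKM in Anti. CRLM1-OE was below both controls in every library, and the controls overlapped. The log2 fold change was -0.36 against Ctrl (SE 0.047, adjusted p = 1.1e-13) and -0.28 against Anti (SE 0.046, adjusted p = 6.1e-09). Anti against Ctrl gave -0.1 (95% interval -0.19 to -0.014, adjusted p = 0.088), and 0.0018 with total-count scaling.

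The 4 remaining targets were all lower in CRLM1-OE than in both controls and all higher in Anti than in Ctrl. TNFAIP3 encodes A20, an enzyme that edits ubiquitin chains and shuts off signalling upstream of the IkB kinase, and lies at chr6:137867214-137883314 on the forward strand. It had 9.54, 9.21 and 9.31 FPKM in the CRLM1-OE libraries, 11.17, 10.79 and 10.89 FPKM in Ctrl and 12.58, 13.45 and 12.74 FPKM in Anti. The groups did not overlap, but the steps were small. TNFAIP3 stood at 78.9% of Ctrl (log2 fold change -0.34, SE 0.039, adjusted p = 2.3e-17) and at 70.2% of Anti (-0.51, SE 0.036, adjusted p = 9e-44), and Anti at 111% of Ctrl (0.15, SE 0.036, adjusted p = 0.00036).

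TNFAIP2, a gene first known for its induction by TNF, lies at chr14:103121476-103137439 on the forward strand. Its FPKM were 11.82, 12.26 and 11.15 in CRLM1-OE, 19.27, 18.90 and 18.35 in Ctrl and 29.85, 31.22 and 32.12 in Anti. Of the 10 genes it differed most between CRLM1-OE and Anti and between the controls. The log2 fold change was -0.8 against Ctrl (SE 0.034, adjusted p = 1.2e-120), -1.45 against Anti (SE 0.029, adjusted p = 1e-300) and 0.63 for Anti against Ctrl (SE 0.029, adjusted p = 6.8e-103).

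BIRC3 encodes cIAP2, a ubiquitin ligase that protects cells from TNF-induced death and restrains the alternative pathway, and lies at chr11:102317484-102339403 on the forward strand. It had 5.70, 6.07 and 5.56 FPKM in the CRLM1-OE libraries, 11.36, 11.05 and 10.83 FPKM in Ctrl and 13.69, 13.84 and 14.01 FPKM in Anti. CRLM1-OE was far below both controls, which stood closer together. BIRC3 stood at 48.1% of Ctrl (log2 fold change -1.06, SE 0.037, adjusted p = 1.3e-178) and at 40.4% of Anti (-1.31, SE 0.033, adjusted p = 1e-300), and it was 0.23 higher in Anti than in Ctrl (SE 0.031, adjusted p = 3.8e-12). Over the alternative settings the value against Ctrl ranged from -1.09 to -0.83.

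ICAM1, which encodes an adhesion molecule for leukocytes, lies at chr19:10271093-10286615 on the forward strand. It had 3.85, 3.70 and 3.79 FPKM in the CRLM1-OE libraries, 6.14, 5.57 and 5.95 FPKM in Ctrl and 8.41, 8.05 and 8.23 FPKM in Anti. The groups did not overlap, and CRLM1-OE was lowest. The log2 fold change was -0.75 against Ctrl (SE 0.064, adjusted p = 7.6e-31), -1.17 against Anti (SE 0.059, adjusted p = 2.2e-86) and 0.39 for Anti against Ctrl (SE 0.054, adjusted p = 5.7e-12). Exons of ICAM1 share 815 bases with ICAM4-AS1 and 61 bases with LIMASI on the opposite strand in GENCODE version 44. Unless counting used strand, which is not given, reads from these shared bases cannot be told apart. Shorter overlaps with opposite-strand noncoding genes exist for BIRC3 (126 bases), RELA (103 bases with RELA-DT), TNFAIP3 (95 bases with WAKMAR2) and TNFAIP2 (24 bases).

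Ratios of members within a library do not depend on how libraries are scaled to each other. The following 3 were chosen after the values were seen and are given as a description, with no test. The transcript of the inhibitor NFKBIA relative to its target RELA was 1.12, 1.08 and 1.15 in CRLM1-OE, 2.06, 2.09 and 2.11 in Ctrl and 2.66, 2.72 and 2.62 in Anti (means 1.12 ± 0.0397, 2.09 ± 0.0218 and 2.67 ± 0.0528). NFKB2 relative to NFKB1 was 20.9, 21.7 and 22.4 in CRLM1-OE, 12.4, 11.5 and 12.5 in Ctrl and 8.0, 8.08 and 7.76 in Anti. NFKBIA relative to NFKB2, the leading genes of the order in Ctrl, had means of 0.961 ± 0.0389 for Ctrl, 1.22 ± 0.0235 for Anti and 0.427 ± 0.014 for CRLM1-OE. In each of the 3 ratios the groups stood apart in all libraries, with Ctrl between CRLM1-OE and Anti.

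**Figure D3:**
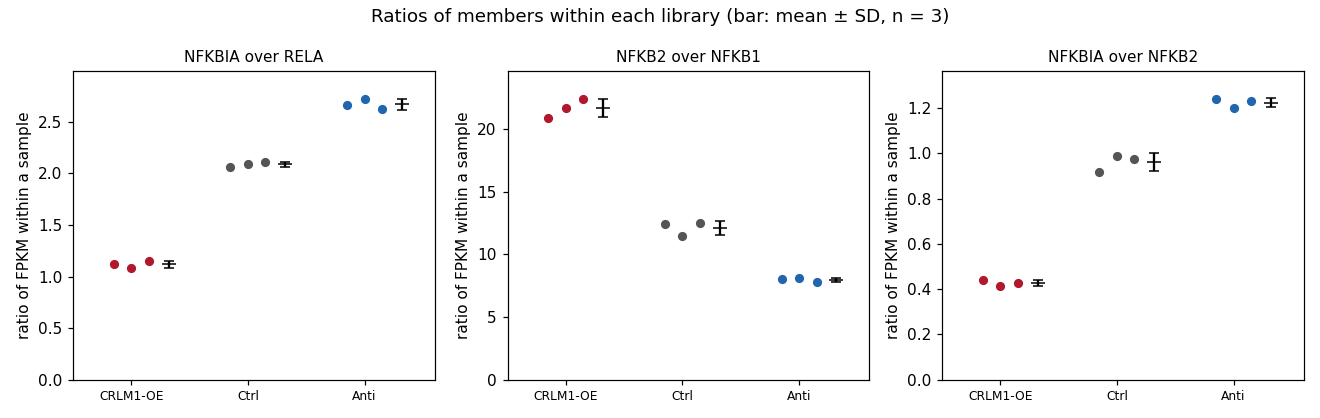
Ratios of FPKM within each library for 3 pairs of genes, on linear axes from 0. Points are libraries, and bars give the mean ± SD (n = 3); the mean of NFKBIA over RELA rose from 1.12 (CRLM1-OE) through 2.09 (Ctrl) to 2.67 (Anti).

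Further genes of the pathway were taken from lists of 113 genes by role. Against Ctrl, 108 were tested in CRLM1-OE, of which 41 (38.0%) were lower and 23 (21.3%) higher, with a median of -0.1. The share that was lower is near the 39.1% of all genes with at least 100 counts (28.8% higher), so it is no result about the lists. Against Anti, 52 of 107 (48.6%) were lower and 21 (19.6%) higher, beside 40.4% and 33.8% of the genes with at least 100 counts. In Anti against Ctrl, 37 of 108 (34.3%) were higher and 18 (16.7%) lower, beside 25.0% and 28.8%. At least 2-fold changes were called for 6 of the tested genes against Ctrl, for 12 against Anti and for 5 between the controls, where 3.41%, 5.65% and 1.06% of all tested genes were called.

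Among the ligands, 4 of 13 tested genes (30.8%) were lower against Ctrl and the other 9 did not pass. Of all tested genes 16.8% were lower, and of those with at least 100 counts 39.1%. Most of the ligands averaged fewer than 100 counts, so the second share is not a like baseline. With only 13 genes, the count is not read as a result about the ligands. TNF, the classical activating cytokine, had 6, 3 and 3 counts in CRLM1-OE, 18, 18 and 20 in Ctrl and 63, 38 and 41 in Anti. LTB, a subunit of the lymphotoxin that signals to the alternative pathway, had 8, 3 and 5 counts in CRLM1-OE, 32, 52 and 52 in Ctrl and 127, 101 and 86 in Anti. Both were low in every library and followed the same order of groups as most of the 10 genes. Corrected for depth, the summed counts of TNF in CRLM1-OE were 0.199 times those in Ctrl (95% counting interval 0.097 to 0.375) and 0.0807 times those in Anti (0.0407 to 0.145). For LTB the ratios were 0.109 (0.0606 to 0.184) and 0.0487 (0.0275 to 0.0803). The fitted log2 fold changes against Ctrl were -2.31 for TNF (SE 0.48, adjusted p = 9.7e-06) and -3.19 for LTB (SE 0.35, adjusted p = 2.4e-18). On log2(FPKM + 1), where values this low change little, limma gave -0.26 for TNF and -0.93 for LTB, both with an adjusted p of at most 0.0045. In Anti against Ctrl they were 1.26 for TNF (SE 0.26, adjusted p = 1.7e-05) and 1.12 for LTB (SE 0.18, adjusted p = 6.7e-09).

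Of 17 receptor genes tested against Ctrl, 5 (29.4%) were higher and 7 (41.2%) lower, near the 28.8% and 39.1% of the genes with at least 100 counts. TNFRSF11A, which encodes RANK, had 166, 145 and 157 counts in CRLM1-OE, 68, 56 and 42 in Ctrl and 78, 77 and 41 in Anti, and its log2 fold change was 1.39 against Ctrl (SE 0.16, adjusted p = 5.7e-18) and 1.2 against Anti (SE 0.15, adjusted p = 7.8e-15). TLR3, a sensor of double-stranded RNA, had 49, 37 and 46 counts in CRLM1-OE, 96, 97 and 91 in Ctrl and 167, 128 and 129 in Anti. It fell by 1.22 against Ctrl (SE 0.19, adjusted p = 6.7e-10) and by 1.74 against Anti (SE 0.17, adjusted p = 1.1e-24). The receptors LTBR, TNFRSF1A and TNFRSF1B of the ligands above were picked here after their values were seen. LTBR, the receptor of lymphotoxin, had 35.05, 36.15 and 35.01 FPKM in the CRLM1-OE libraries, 52.26, 52.06 and 51.57 in Ctrl and 58.53, 59.35 and 60.81 in Anti (log2 fold change against Ctrl -0.67, SE 0.03, adjusted p = 4.2e-109). TNFRSF1A, the main TNF receptor of epithelial cells, fell by 0.32 against Ctrl (SE 0.029, adjusted p = 3.4e-26). TNFRSF1B, the other TNF receptor, lay between 0.06 and 0.24 FPKM, and its log2 fold change was 0.72 against Ctrl (SE 0.31, adjusted p = 0.056) and 1.0 against Anti (SE 0.32, adjusted p = 0.0052). The TNFRSF1B value against Anti was 0.78 without CRLM1-OE replicate 3 (adjusted p = 0.074) and 0.79 without Anti replicate 3 (adjusted p = 0.053), and that against Ctrl was 0.87 without CRLM1-OE replicate 1 (adjusted p = 0.027) and 1.13 without Ctrl replicate 2 (adjusted p = 0.0067).

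Of 28 adaptors and kinases, 11 (39.3%) were lower and 6 (21.4%) higher against Ctrl, beside 39.1% and 28.8% of the genes with at least 100 counts, so the share that was lower is no result about the list. MALT1, the paracaspase that activates the IkB kinase and cleaves A20, had 23.3, 22.2 and 20.2 CPM in CRLM1-OE, 46.1, 44.5 and 39.2 CPM in Ctrl and 61.7, 63.0 and 60.6 CPM in Anti (CPM, counts scaled by library size and TMM factor). Its log2 fold change was -0.98 against Ctrl (SE 0.049, adjusted p = 5.3e-88), -1.49 against Anti (SE 0.044, adjusted p = 1.4e-248) and 0.49 for Anti against Ctrl (SE 0.04, adjusted p = 1.5e-32). IKBKE, an IkB kinase-related kinase, fell by 0.73 against Ctrl (SE 0.12, adjusted p = 1.1e-08) and by 1.21 against Anti (SE 0.11, adjusted p = 2.4e-27). Among adaptors and kinases, 14 of 28 were higher and 2 lower in Anti against Ctrl, with a median of 0.18, while 25.0% and 28.8% of the genes with at least 100 counts were. Of 17 ubiquitin regulators, 5 were higher and 5 lower against Ctrl, or 29.4% each, beside 28.8% and 39.1%.

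**Figure D4:**
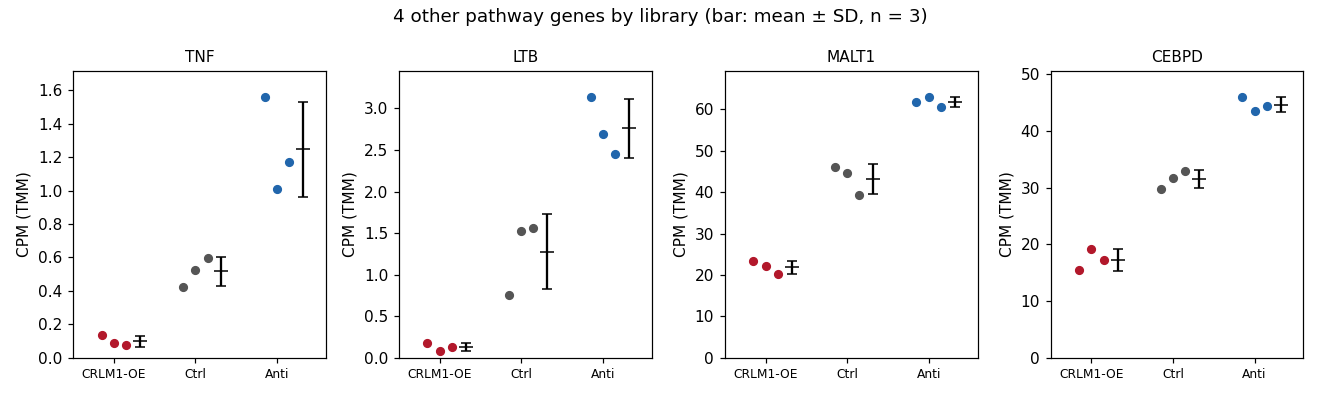
CPM after TMM scaling of TNF, LTB, MALT1 and CEBPD in the 9 libraries, on linear axes from 0 that differ between panels. Points are libraries and bars give the mean ± SD (n = 3); in all 4 genes every CRLM1-OE library lies below every Ctrl library, and every Ctrl library below every Anti library.

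The other subunit and IkB genes, 5 in number and all named here for completeness, did not move one way. REL, the remaining subunit, had 1.58, 1.67 and 1.59 FPKM in the CRLM1-OE libraries, 2.15, 2.23 and 2.01 in Ctrl and 2.09, 1.99 and 1.98 in Anti, and fell by 0.52 against Ctrl (SE 0.055, adjusted p = 2.1e-19). BCL3, a nuclear IkB protein that partners p50 and p52, fell by 0.72 against Ctrl (SE 0.035, adjusted p = 2e-89) and by 0.28 against Anti (SE 0.036, adjusted p = 8.7e-14), and unlike most of the 10 genes it was lower in Anti than in Ctrl (-0.47, SE 0.034, adjusted p = 2.3e-40). NFKBIZ, another nuclear IkB protein, was higher than Ctrl in CRLM1-OE (0.54, SE 0.079, adjusted p = 4.9e-11) and in Anti (0.58, SE 0.08, adjusted p = 6.2e-12). NFKBIB, which encodes IkB-beta, had a log2 fold change of -0.026 against Ctrl (95% interval -0.1 to 0.047, adjusted p = 0.64), and of 0.12 with total-count scaling (adjusted p = 0.0072). NFKBID had between 30 and 73 counts per library and did not pass in any of the 3 comparisons (smallest adjusted p = 0.34).

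Of 28 further target genes tested against Ctrl, 12 (42.9%) were lower and 6 (21.4%) higher, beside 39.1% and 28.8% of the genes with at least 100 counts, and the large changes went both ways. CEBPD, a transcription factor of the acute phase, had 15.4, 19.2 and 17.2 CPM in CRLM1-OE, 29.8, 31.7 and 32.9 CPM in Ctrl and 46.0, 43.5 and 44.4 CPM in Anti, and its log2 fold change was -0.87 against Ctrl (SE 0.056, adjusted p = 5.3e-53) and -1.38 against Anti (SE 0.05, adjusted p = 3.7e-164). PLAU, the urokinase-type plasminogen activator, fell by 0.73 against Ctrl (SE 0.024, adjusted p = 6.5e-208) and by 1.07 against Anti (SE 0.02, adjusted p = 1e-300). Both shared the order of groups of NFKBIA. GADD45B, a stress-response gene that restrains JNK signalling, went the other way with 327, 319 and 321 CPM in CRLM1-OE, 175, 167 and 171 CPM in Ctrl and 130, 132 and 130 CPM in Anti (log2 fold change against Ctrl 0.91, SE 0.025, adjusted p = 1.6e-285). DUSP2, a phosphatase of MAP kinases, rose by 1.67 against Ctrl (SE 0.056, adjusted p = 2.5e-192) and by 1.53 against Anti (SE 0.054, adjusted p = 2.1e-177). TNC, an extracellular matrix protein, had 26, 3 and 10 counts in CRLM1-OE, 10 in each Ctrl library and 28, 16 and 22 in Anti. The change of TNC between Anti and Ctrl (1.06, adjusted p = 0.019) did not pass without Anti replicate 1 (0.9, adjusted p = 0.13), without Anti replicate 3 (1.01, adjusted p = 0.058) or without Ctrl replicate 1 (0.95, adjusted p = 0.08). SERPINB2 and EDAR were also called but had a mean count below 10, with 26, 19 and 8 against 9, 7 and 8 counts for SERPINB2 in CRLM1-OE and Ctrl.

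**Figure D5:**
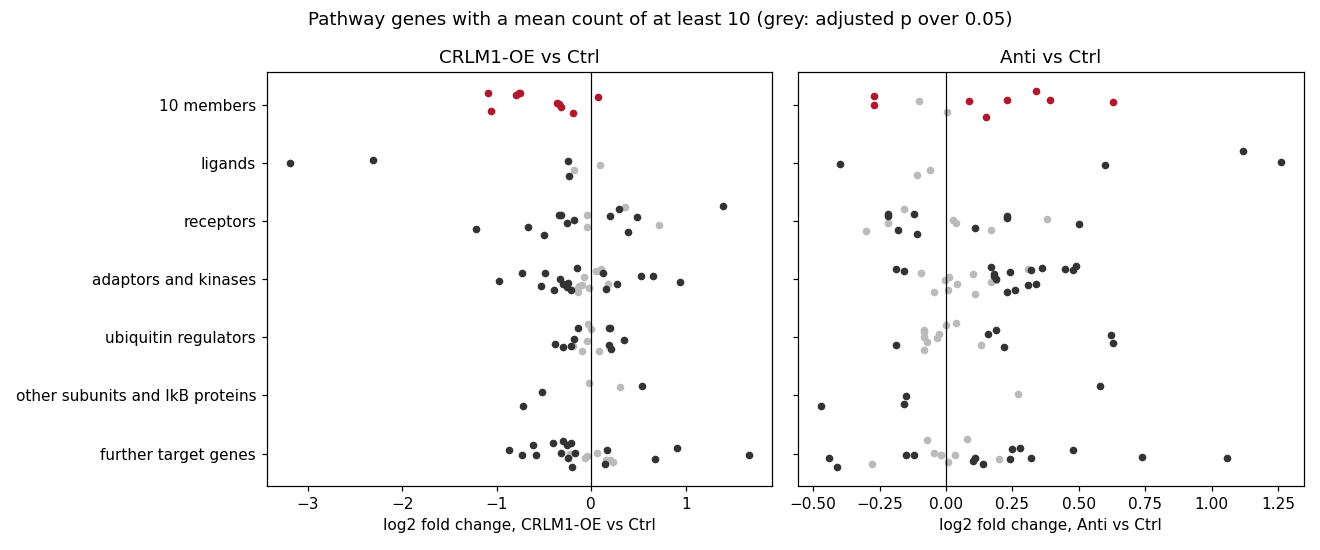
Log2 fold changes of the 10 genes and of the pathway lists, for CRLM1-OE against Ctrl on the left and Anti against Ctrl on the right, with different horizontal scales. Each point is a gene averaging 10 counts or more, and grey points had an adjusted p over 0.05; TNF and LTB, at -2.31 and -3.19, lie farthest to the left in CRLM1-OE against Ctrl, and the other lists spread to both sides of 0.

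For the best-known feedback and effector genes, the non-member genes with the most similar profile were sought among 11702 genes averaging 100 counts or more. Likeness was the root-mean-square difference of log2 CPM, centred on each gene's own mean, over the 9 samples. For NFKBIA these were UCA1 (0.0293), TMEM184A (0.0593) and SNHG7 (0.0649), of which UCA1 and SNHG7 are long noncoding RNAs. For TNFAIP3 they were NQO1 (0.0193), CASC4 (0.026) and RRN3 (0.0289). BIRC3 was near to RBBP4 (0.0477) and ARRDC3 (0.0511), and ICAM1 to CLN6 (0.0461), BOK (0.0468) and WDR77 (0.0472). The 10 genes were left out of this search, and none of the genes named here is on the pathway lists. With 3 groups of like libraries, many genes can share a profile, and the values are a description.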

How the data were processed

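Reads were trimmed by the authors (FASTX-Toolkit), and those shorter than 16 nt were discarded. TopHat2 placed the remaining reads on GRCh38 with up to 4 mismatches. The authors deposited raw counts of uniquely mapped reads for the genes of Gencode version 23. The authors also deposited FPKM values, given to 2 decimals. Both tables list genes that the authors called expressed. Strand use and pair counting are not given in the sources used here.

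The 9 samples were grouped by their labels. The quasi-likelihood test of edgeR 4.0.16 (R 4.3.3, TMM factors, glmQLFit and glmQLFTest) was run on the 6 samples of each comparison, with no covariate, for every gene with at least 1 count, with Benjamini-Hochberg adjustment over all of them. A gene passed at an adjusted p of at most 0.05 and was called if it also changed at least 2-fold. The fit took the spread from the trend across genes, with no gene-wise part. CPM values and the overlap of groups in normalised counts used TMM factors of all 9 samples together. Adjusted p-values below 1e-300 were written as 1e-300. Total counts of 33302292 to 44514692 put 3 counts at 0.0674 to 0.0901 CPM. As no molecular identifiers were used, that floor and the intervals of the TNF and LTB count ratios cover counting error only. Other intervals come from the standard errors of the edgeR fit.

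The 10 genes and the lists were chosen with earlier results of these data known. Every member was named, as was every pathway gene called in any comparison with a mean count of at least 10, and the 3 genes nearest in profile to NFKBIA, TNFAIP3, BIRC3 and ICAM1, of which 1 is not reported here. Other genes and the ratios were chosen after their values were seen. Gene positions are from GENCODE version 44 and promoters from RefSeq (GRCh38.p14).

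Alternatives were RLE factors, total counts, filterByExpr, at least 10 counts in every sample, the Wald test of DESeq2 1.42.0, limma 3.58.1 on log2(FPKM + 0.1) and log2(FPKM + 1), 1 joint fit of the 9 samples, a block for replicate number, and each library left out. The fits were tested on simulated data with the same dispersion for all genes, so the outcome holds for that setting only. Of 100 planted log2 changes of 0.5, edgeR with TMM factors recovered 94%. With limma on log2(FPKM + 0.1) and log2(FPKM + 1), 35% and 26% were recovered, so limma can miss changes of this size. Figures were drawn with matplotlib 3.10.9.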

Additional observations from a re-analysis of the deposited data

How the results depend on the processing

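Of the log2 fold changes of the 10 genes, 259 of 270 kept their direction and side of the threshold under the other settings, and 177 of 180 did so when 1 library was left out. For the other pathway genes named, the numbers were 477 of 505 and 318 of 342. Members lower in CRLM1-OE than in Ctrl numbered 9, and 8 with total counts and with limma on either FPKM scale. RELA was the member that did not pass there. The count of members at least 2-fold different between CRLM1-OE and Ctrl was 2, and 0 with total counts and with limma on either FPKM scale (pseudocount 0.1 or 1), where NFKBIA lay between -0.98 and -0.95 and BIRC3 between -0.93 and -0.83 on the log2 scale. Against Anti it was 5, and 3 with limma on log2(FPKM + 1), a scale that shrinks changes of low values. Members higher in CRLM1-OE than in Anti numbered 1, and 2 with RLE factors, total counts, filterByExpr and at least 10 counts in every sample. They ranged from 1 to 2 when 1 library was left out, and were 2 without CRLM1-OE replicate 3. The added member was RELA each time. For Anti against Ctrl, NFKBIE turned to 0.0018 with total counts, and RELB ranged from -0.013 to 0.014 when 1 library was left out. NFKBIB in CRLM1-OE against Ctrl turned to 0.12 with total counts, 0.09 and 0.086 with limma at a pseudocount of 0.1 and 1, and ranged from -0.046 to 0.0051 when 1 library was left out. NFKBID in CRLM1-OE against Anti ranged from -0.17 to 0.24, and TNC in CRLM1-OE against Ctrl from -0.65 to 0.63, turning without CRLM1-OE replicate 1. TNFRSF1B in Anti against Ctrl ranged from -0.62 to 0.11 when 1 library was left out. With the replicate block, TNFRSF1B passed against Ctrl (0.73, adjusted p = 0.039). Over all genes, CRLM1-OE exceeded Ctrl at 4462 and was below it at 5016, but at 6649 and 2951 with total counts. The causes of these shifts were not tested.

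With the replicate block, 9 members were lower, 1 higher and 2 called in CRLM1-OE against Ctrl, 8, 1 and 5 against Anti, and 6 were higher and 2 lower in Anti against Ctrl. The pathway genes that passed numbered 65, 71 and 54 with the replicate block and 64, 73 and 55 without it. In their deviations from the group means, samples with the same replicate number correlated between -0.0206 and 0.0682 over 9 pairs. Those with different numbers correlated between -0.076 and 0.046 over 18 pairs. No pairing by number was seen in these values, which cannot show how the replicates were made. Depth limits TNF and LTB in CRLM1-OE, where a library held 3 to 8 counts.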
